A study of Mus musculus with 5 samples.

Results

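Among the DNase I hypersensitive sites of naïve CD8+ T cells, 8141 promoter sites ranked under 20 percentile points apart with and without the transcription factors Tcf1 and Lef1. The members were selected on both peak lists of the series. They are autosomal WT peaks that overlapped a dKO peak by at least 1 bp, had their summit within 1000 bp of an annotated transcript start, and had a pileup percentile that differed from that of the overlapping dKO peak by under 20 points. Where several dKO peaks overlapped, the one with the highest pileup was used. Pileup is the number of sequenced fragments that cover the summit of a peak, and the percentile places it within all peaks of the same list, with 100 for the highest. The deposited lists hold 31116 WT peaks and 25525 dKO peaks, and 9884 autosomal WT peaks at promoters overlapped a dKO peak.

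The cells came from the spleen of C57BL/6 mice of both sexes, 6 to 12 weeks old, and were sorted as GFP+ TCRβ+ CD44lo-med CD8+ cells with a naïve surface phenotype. All mice carried hCD2-Cre, which is mainly active in mature T cells, and a Rosa26 GFP reporter that marks cells in which Cre has acted. WT mice had intact Tcf7 and Lef1 alleles (Tcf7+/+ Lef1+/+) and dKO mice had floxed ones (Tcf7 fl/fl Lef1 fl/fl). Naïve cells of 3 WT and 2 dKO samples were digested with DNase I, and the samples of a genotype were pooled by the authors before peaks were called, with 83923734 fragments kept for WT and 62242963 for dKO, 1.35 times as many in WT. With 1 pool per genotype there is no spread between replicates, so no test between genotypes was possible, and all values compare 2 pools. In such bulk material, fewer cells with an open site and a less open site in each cell cannot be told apart. Intervals of shares are 95% Wilson intervals, which cover counting error over sites only.

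A promoter is the stretch of DNA around a transcript start where general factors and RNA polymerase II assemble, and DNase I cuts it readily when nucleosomes are displaced there. Many mammalian promoters lie in CpG islands, stretches rich in unmethylated CG dinucleotides, and are open in most cell types, bound by factors such as SP and KLF proteins, NRF1, NFY, CREB and the ETS factor GABP. Promoters of lineage genes are more often poor in CpG and open in few cell types. Tcf1, encoded by Tcf7, and Lef1 are high mobility group proteins that bind a short Tcf/Lef core sequence, largely at distal elements of T cells.

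The sequences of 11 members show both kinds. Each is the 150 bases just before the start of the named gene, in mm9, read 5′ to 3′ on the strand of the gene and clear of annotated exons. Capitals mark matches on either strand to 1 of 12 short motifs. The searched letters were CCGGAAG for ETS factors and GGGCGGG for SP and KLF proteins (the GC box). For NRF1 they were TGCGCATGC, for CREB (the CRE) TGACGTCA and for NFY (the CCAAT box) AGCCAAT. YY1 was searched as AAGATGGCG, the E-box as CACGTG, the TATA box as TATAAA and ZNF143 as ACTACAATT. RUNX was searched as TGTGGTT, AP-1 as TGANTCA with N for any base, and the Tcf/Lef core as ATCAAAG. No motif contains another, though matches may overlap by a few bases. The first 6 are promoters of general cellular genes or of a widely expressed factor, shown because each had the highest WT pileup among the members of its gene list. They serve a proteasome subunit (Psma2), a U1 splicing protein (Snrnp70), a subunit of respiratory complex I (Ndufa3), a glycolytic enzyme (Pgam1), a methyl-CpG-binding domain protein of chromatin (Mbd3) and the partner of RUNX proteins (Cbfb).
Psma2, chr13:14705371-14705520, plus strand: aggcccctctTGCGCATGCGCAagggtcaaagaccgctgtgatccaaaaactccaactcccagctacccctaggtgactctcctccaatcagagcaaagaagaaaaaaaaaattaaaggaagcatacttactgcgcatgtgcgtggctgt
Snrnp70, chr7:52651063-52651212, minus strand: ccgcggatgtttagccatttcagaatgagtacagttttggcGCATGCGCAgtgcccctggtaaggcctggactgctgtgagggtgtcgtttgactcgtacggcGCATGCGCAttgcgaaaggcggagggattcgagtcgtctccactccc
Ndufa3, chr7:3568825-3568974, plus strand: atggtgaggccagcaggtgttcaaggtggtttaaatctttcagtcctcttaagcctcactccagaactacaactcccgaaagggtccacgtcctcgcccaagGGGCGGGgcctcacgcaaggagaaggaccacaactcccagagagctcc
Pgam1, chr19:41986211-41986360, plus strand: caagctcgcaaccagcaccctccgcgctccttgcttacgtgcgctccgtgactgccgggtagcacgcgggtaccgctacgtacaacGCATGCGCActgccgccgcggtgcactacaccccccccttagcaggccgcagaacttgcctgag
Mbd3, chr10:79862296-79862445, minus strand: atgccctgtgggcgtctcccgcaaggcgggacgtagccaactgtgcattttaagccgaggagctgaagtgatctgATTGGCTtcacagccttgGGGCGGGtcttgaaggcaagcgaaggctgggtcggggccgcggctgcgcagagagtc
Cbfb, chr8:107694424-107694573, plus strand: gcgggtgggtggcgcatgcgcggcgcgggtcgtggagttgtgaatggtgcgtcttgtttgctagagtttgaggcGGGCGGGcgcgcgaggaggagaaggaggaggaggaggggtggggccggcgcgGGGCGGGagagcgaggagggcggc

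The other 5 are CpG-poor promoters of T cell genes that were members too. They serve a costimulatory receptor (Cd28), a kinase of T cell receptor signalling (Lck), a transcription factor of the CD8+ lineage (Runx3), the chemokine receptor that brings naïve T cells into lymph nodes (Ccr7) and the interleukin 7 receptor (Il7r).
Cd28, chr1:60803052-60803201, plus strand: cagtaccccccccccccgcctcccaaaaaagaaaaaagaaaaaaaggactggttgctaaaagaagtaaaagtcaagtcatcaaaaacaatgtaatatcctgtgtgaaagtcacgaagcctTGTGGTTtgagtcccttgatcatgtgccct
Lck, chr4:129250886-129251035, minus strand: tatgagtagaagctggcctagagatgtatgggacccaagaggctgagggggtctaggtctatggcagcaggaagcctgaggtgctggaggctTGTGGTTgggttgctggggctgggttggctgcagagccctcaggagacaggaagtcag
Runx3, chr4:134676417-134676566, plus strand: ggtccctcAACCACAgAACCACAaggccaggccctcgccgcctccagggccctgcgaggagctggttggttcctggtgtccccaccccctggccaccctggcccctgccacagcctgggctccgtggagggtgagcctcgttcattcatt
Ccr7, chr11:99016392-99016541, minus strand: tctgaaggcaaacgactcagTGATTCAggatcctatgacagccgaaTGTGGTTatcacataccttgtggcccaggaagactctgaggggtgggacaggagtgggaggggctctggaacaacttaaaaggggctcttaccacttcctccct
Il7r, chr15:9459632-9459781, minus strand: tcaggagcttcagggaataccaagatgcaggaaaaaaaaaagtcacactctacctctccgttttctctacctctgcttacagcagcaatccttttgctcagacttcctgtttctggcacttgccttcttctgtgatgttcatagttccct

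The first set held NRF1 matches in Psma2, Snrnp70 and Pgam1 and GC boxes in Ndufa3, Mbd3 and Cbfb, with a CCAAT box in Mbd3. In the second set, RUNX matches stood at -30 in Cd28, -58 in Lck, -142 and -134 in Runx3 and -104 in Ccr7, which also held an AP-1 match at -130, counted from the start to the first base of the match. The 150 bases of Il7r held none of the 12 motifs. None of the 11 sequences shown held the Tcf/Lef core, but they are a choice among members. The promoter of Fyn, a member and a gene of T cell receptor signalling not shown here, held the core at -61. A match of letters is no evidence that a factor binds there, and the absence of one says only that these letters are not in the window.

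Most shared promoters qualified. Of 9884 shared promoters, 8141 were members, which is 82.4% (interval 81.6% to 83.1%), the background against which member counts are read. The other shared promoters lay almost all on one side, with 1580 (16.0%) ranking at least 20 points higher in WT and 163 (1.65%) at least 20 points higher in dKO. Of 11351 shared distal sites, those over 1000 bp from any start, 8665 or 76.3% met the same limit, with 15.6% higher in WT and 8.09% higher in dKO. These shares follow from the rule and describe the lists.

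**Figure D1:**
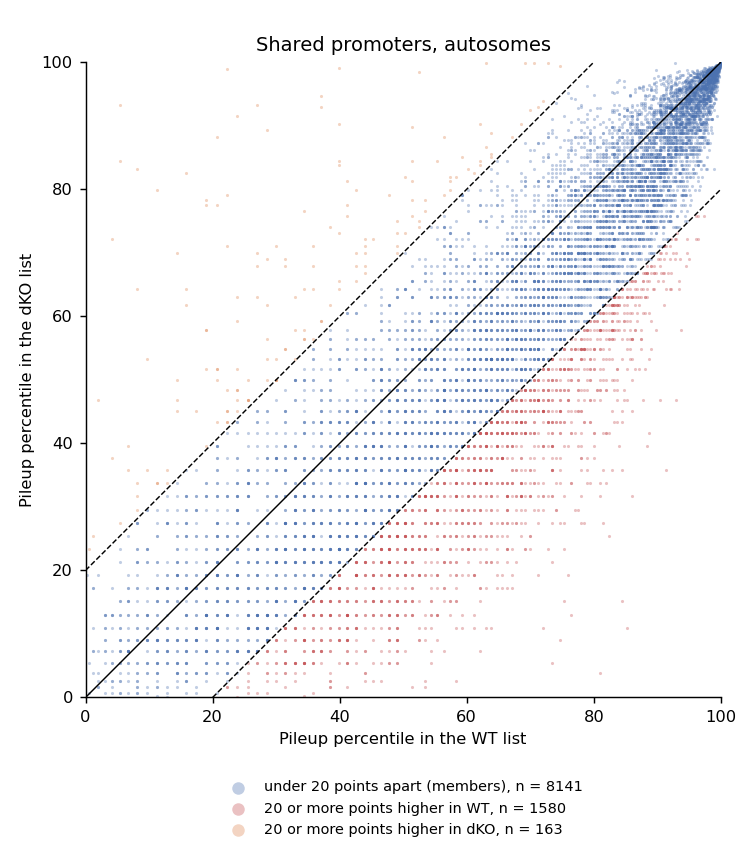
Pileup percentile in the WT list (x axis) against that in the dKO list (y axis) for the 9884 shared autosomal promoters, 1 point each. The dashed lines are the 20-point limits that define the 8141 members (blue), and the 1580 promoters below the lower line (red) outnumber the 163 above the upper line (orange).

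The members ranked high in both lists. Their median percentile was 79.5 in WT (quartiles 56.4 and 91.7) and 74.0 in dKO (quartiles 50.1 and 88.3), and 6076 of them (74.6%) stood in the upper part of both lists, above percentile 50. The top 10 percent of the WT list held 2390 members and the lowest 10 percent held 140. The percentile in dKO minus that in WT had a median of -4.16 points (quartiles -10.2 and 0.246), so that 5980 members (73.5%) ranked lower in dKO. The percentiles come from lists of unequal length, and the 2467 promoter and 6697 distal autosomal peaks found in WT only are counted in the WT list alone, so the direction of this shift depends partly on which peaks each list holds. The difference was under 5 points for 3534 members and under 10 points for 5671.

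Pileups were not scaled to depth in the deposited lists. The median pileup of the members was 92 fragments in WT (quartiles 60 and 126) and 61 in dKO (quartiles 42 and 82). After division by the fragments of each pool, the median log2 ratio of dKO to WT was -0.14 (quartiles -0.29 and 0.03), and 8014 members (98.4%) lay within 1.5-fold, which the limit on percentiles largely fixes. Median fold enrichment, the pileup divided by the local background that MACS2 estimates, was 11.2 in WT and 10.7 in dKO. Ranked by fold enrichment, which is computed from the same pileup, 7761 members (95.3%) were under 20 points apart, a value that is not independent of the rule.

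Position and width describe the same peaks. The WT and dKO summits of a member were 10 bp apart in the median, within 10 bp in 52.0% and within 50 bp in 85.6%. The median width was 292 bp in WT and 247 bp in dKO, and 73.4% of members were narrower in dKO, the pool with fewer fragments, where the part of depth in the width was not tested. A second dKO peak overlapped 218 members, and 38 members shared their dKO peak with another member.

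At the limit, the values moved without a step. Just inside were Fam117a (116 fragments in WT and 56 in dKO, a difference of -19.99 points), Slc50a1 (35 and 18, -19.98 points) and Adal (44 and 25, -19.95 points). Just outside were Cebpg (106 and 53, -20.02 points), Vamp4 (103 and 52, -20.04 points) and the proteasome subunit Psmd2 (103 and 52, -20.04 points). All 6 ranked lower in dKO.

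The share of shared promoters that were members depended on rank. It was 98.1% in the top 10 percent of the WT list, 64.9% between percentiles 40 and 50, and 92.9% between 10 and 20. For shared distal sites the corresponding shares were 93.1%, 67.9% and 81.1%. A site near the top of a list can hardly rise and 1 near the bottom can hardly fall, so part of this shape follows from the percentile scale. In every step between percentiles 30 and 90, the intervals of promoters and distal sites overlapped. In the lowest 10 percent, 89.2% of promoters (83.3% to 93.1%) against 75.7% of distal sites (72.3% to 78.8%) met the limit.

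**Figure D2:**
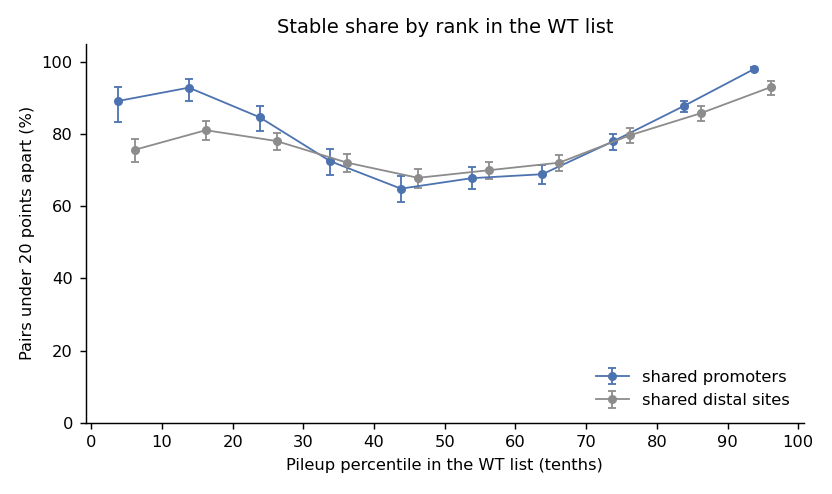
Share of shared pairs under 20 points apart (y axis, %) by rank in the WT list (x axis, steps of 10 percentile points), for promoters (blue) and distal sites (grey), with 95% Wilson intervals as bars. Both lines are lowest between percentiles 40 and 50, at 64.9% and 67.9%, and highest in the top step, at 98.1% and 93.1%.

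The following features were not used to choose members. GC content, taken over the WT summit and 100 bp on either side, had a median of 61.7% in members (quartiles 55.7% and 67.2%), 65.7% in shared promoters that ranked higher in WT, 52.2% in those that ranked higher in dKO, and 49.8% in stable distal sites. The observed over expected number of CpG dinucleotides had a median of 0.807 in members, 0.827 in promoters higher in WT, 0.433 in promoters higher in dKO and 0.282 in stable distal sites. The members thus lay between the shifted classes in base composition, nearer to the promoters that ranked higher in WT.

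GC content also moved with the percentile difference itself. The median difference of shared promoters was 0.251 points at or below 40% GC, 1.53 points between 40% and 45%, and -14.0 points above 75%. In the same bins, shared distal sites had 2.82, 0.339 and -14.1 points. Their fall was not even, with -11.6 points between 65% and 70% and -10.2 points between 70% and 75%. The share of shared promoters that were members was 86.9% between 55% and 60% GC and 64.9% above 75%, where 34.8% ranked higher in WT and 0.215% higher in dKO. Below or at 40% GC, 77.5% were members, 5.63% ranked higher in WT and 16.9% higher in dKO. The part of GC content in the class of a promoter was not tested, and with 1 pool per genotype a property of a pool and one of a genotype cannot be told apart.

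**Figure D3:**
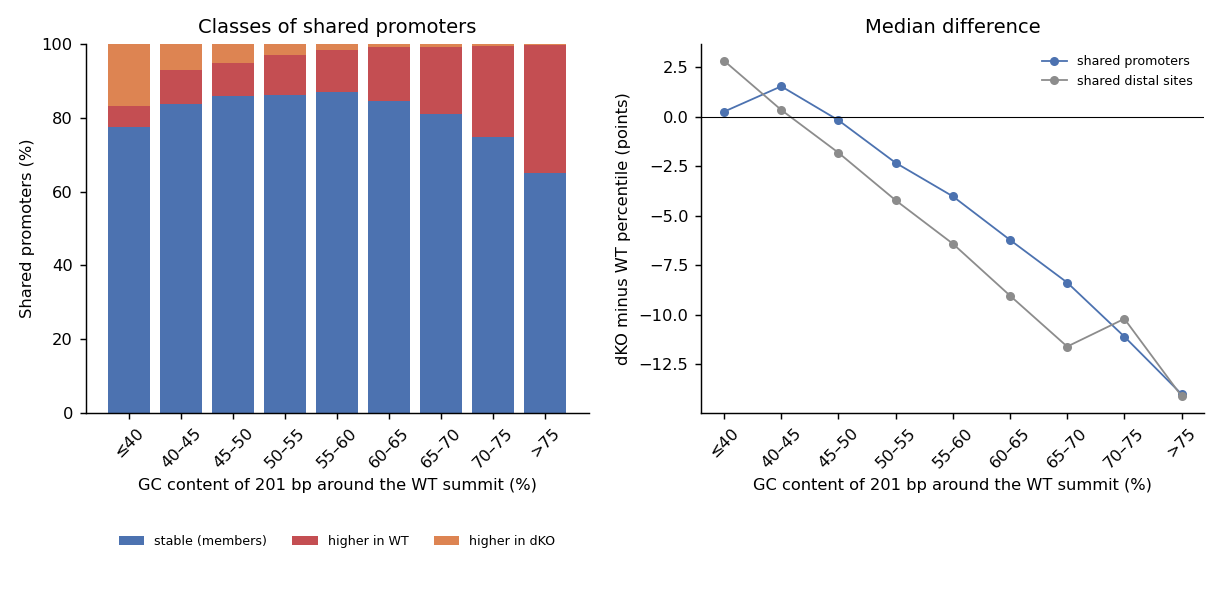
Left, classes of the 9884 shared promoters (y axis, %) by GC content within 100 bp of the WT summit (x axis, bins in %), with members in blue, promoters higher in WT in red and promoters higher in dKO in orange. Right, median percentile difference (dKO minus WT, points) by the same bins for shared promoters (blue) and shared distal sites (grey). For promoters it is 0.251 points at or below 40% GC, 1.53 points between 40% and 45% GC and -14.0 points above 75% GC.

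The nearest annotated start was that of a protein-coding gene for 7572 members (93.0%), of a lincRNA for 237, of an snRNA for 36 and of a snoRNA for 26. The WT summit lay upstream of that start in 74.2% (interval 73.3% to 75.2%), at a median of -39 bp, and within 100 bp of it in 62.3%. In shared promoters higher in WT, it was upstream in 72% (69.7% to 74.1%) and within 100 bp in 67.1% (64.7% to 69.4%, above the interval of 61.2% to 63.3% in members). In WT-only promoters, where no dKO peak overlapped, the summit was upstream in 54.7% (52.7% to 56.6%) and within 100 bp in 38.3%. Starts on both strands within 1000 bp of the summit, as at divergent promoters, were annotated for 19.5% of members (18.7% to 20.4%), 17.9% of promoters higher in WT (16.1% to 19.9%), 14.1% of promoters higher in dKO (9.59% to 20.3%) and 13.2% of WT-only promoters (11.9% to 14.6%). WT-only promoters had a median WT percentile of 20.7, against 79.5 in members. The part of rank in these contrasts was not tested.

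The motifs of general promoter factors were common within 100 bp of the summit. A GC box was present in 38.6% of members (37.6% to 39.7%) and in 26.3% of windows of the same length centred on all 43968 annotated protein-coding start positions of the autosomes. The ETS motif was present in 18.1% of members (17.3% to 18.9%) against 8.69% of those starts, the CCAAT box of NFY in 11.1% against 5.23%, the E-box in 9.13% against 5.23%, the CRE in 4.15% against 1.65%, NRF1 in 3.44% against 1.32% and YY1 in 3.14% against 1.86%. The TATA box was less frequent, at 3.18% against 6.71%. The windows of members are centred on summits and those of the annotation on starts, many of which had no peak. Shared promoters higher in WT held these motifs too. The GC box was present in 43.1% of them (40.7% to 45.6%, above the interval of the members). ETS was present in 17.5%, the E-box in 10.2%, the CRE in 3.48%, YY1 in 2.72% and the TATA box in 2.85%. The CCAAT box, at 6.65% (5.52% to 7.98%), was less frequent there. NRF1, at 2.28% (1.65% to 3.14%), had an interval that overlapped that of the members (3.06% to 3.86%).

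Motifs of lymphoid enhancers were less frequent in members than in stable distal sites. RUNX was present in 3.69% of members (3.30% to 4.12%) and in 13.8% of stable distal sites, AP-1 in 3.46% and 8.21%, and the Tcf/Lef core in 1.52% (1.28% to 1.81%) and 2.94%. At annotated starts, RUNX was present in 2.93% (2.78% to 3.09%, below the interval of the members) and AP-1 in 3.92% (3.74% to 4.10%), with an interval that overlapped that of the members. The Tcf/Lef core was present in 1.72% of annotated starts, 1.71% of shared promoters higher in WT (1.18% to 2.47%) and 3.68% of those higher in dKO (1.70% to 7.80%). Shared promoters that ranked higher in dKO had RUNX in 15.3% (10.6% to 21.7%) and AP-1 in 11% (7.10% to 16.8%), and neither interval overlapped that of the members. Of these promoters, 46.6% were CpG-poor (observed over expected CpG under 0.4), against 12.2% of members. CpG-poor members had RUNX in 11.5% (9.64% to 13.6%) and AP-1 in 7.96% (6.43% to 9.81%), and both intervals overlapped those of promoters higher in dKO. The part of CpG content in this contrast was not tested.

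Since members stand higher in the list than the shifted classes, the motif shares were also taken between WT percentiles 30 and 70 only. There the ETS motif was present in 16.2% of 2319 members and 18% of 988 promoters higher in WT, with overlapping intervals (14.8% to 17.8% and 15.7% to 20.5%). The GC box was present in 36.8% and 42.4%, with intervals of 34.8% to 38.8% and 39.4% to 45.5% that did not overlap. The CCAAT box was present in 5.69% of members in this range and 4.76% of promoters higher in WT, beside 11.1% of all members. RUNX was present in 3.71% of these members (3.01% to 4.56%) and 14.8% of promoters higher in dKO (8.68% to 24.1%), whereas for AP-1 the intervals overlapped in this range, at 4.66% (3.87% to 5.59%) and 7.41% (3.44% to 15.2%). Median GC was 61.2% in these members, 65.7% in promoters higher in WT and 53.2% in the 81 promoters higher in dKO.

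Several motifs were most frequent close to the start, spread over more than 1 step. In steps of 20 bp, the summits were most frequent from -20 to -1 (12.8% of members), the GC box from -60 to -41 (10.2%, against a mean of 1.56% per step between -400 and -301) and the CCAAT box from -60 to -41 (2.24% against 0.327%). NRF1 was most frequent from -20 to -1 (0.909% against 0.0369%), as was the CRE (0.884% against 0.0467%). ETS was most frequent from 0 to 19 (4.04% against 0.408%). YY1 lay downstream, from 20 to 39 (1.41% against 0.0590%). RUNX had no such range, with 0.442% in its highest step and 0.327% far upstream.

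**Figure D4:**
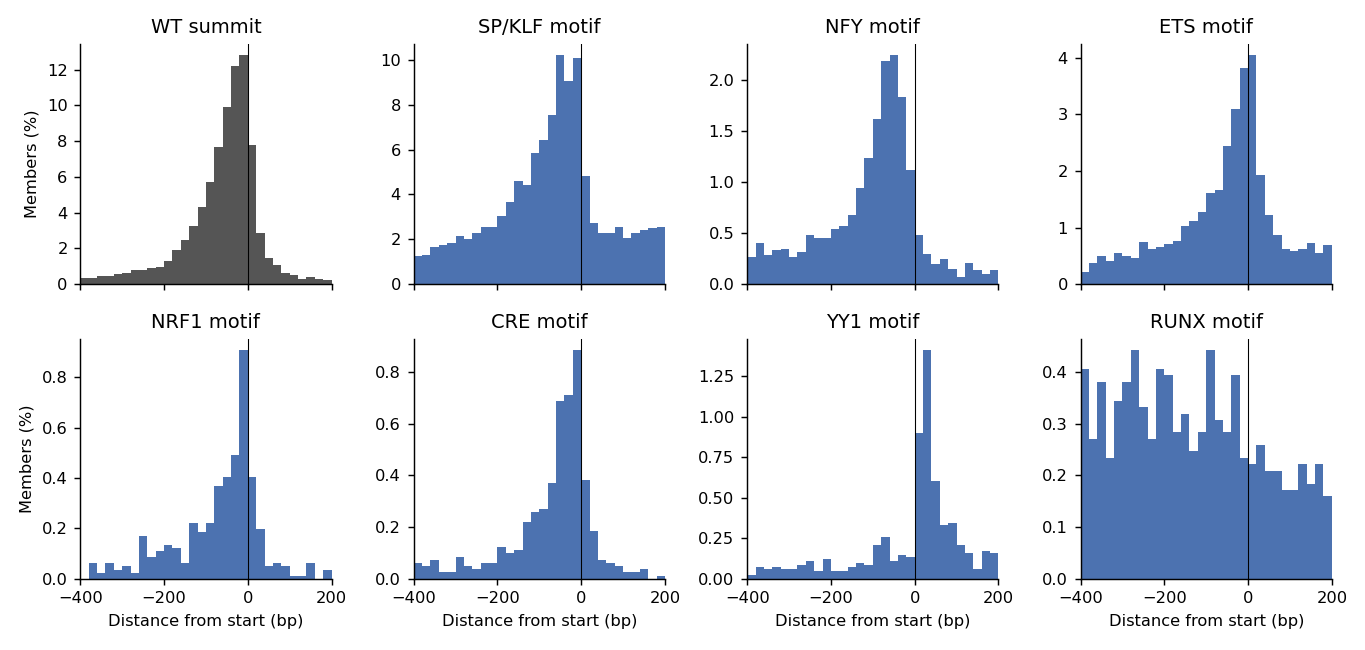
Share of the 8141 members (y axis, %, scaled separately in each panel) with a WT summit or a motif match in steps of 20 bp, by distance from the nearest annotated start (x axis, bp, negative upstream). Summits peak from -20 to -1 at 12.8%, SP/KLF and NFY from -60 to -41, ETS from 0 to 19 and YY1 from 20 to 39, while RUNX reaches 0.442% in its highest step.

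The members fell into unequal classes by CpG content. CpG-rich members (observed over expected at least 0.6 and GC at least 55%) numbered 5490 (67.4%), CpG-poor members (observed over expected under 0.4) 993 (12.2%), and 1658 were intermediate. CpG-rich members had a median WT percentile of 83.3, a median WT width of 307 bp and a summit 52 bp from the start in the median, and 22.6% had divergent starts. CpG-poor members had a median WT percentile of 56.4, a width of 209 bp and a summit 249 bp from the start, and 5.14% had divergent starts. ETS was present in 21.7% of the former and 4.83% of the latter, the GC box in 49.2% and 8.46%, RUNX in 1.89% and 11.5%, and AP-1 in 2.09% and 7.96%. The median percentile difference was -5.26 points in CpG-rich and -0.882 points in CpG-poor members. The class borders were chosen after the values were seen.

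Among 21281 autosomal protein-coding genes, 7653 had at least 1 member within 1000 bp of a start, a background of 36.0%, and of the 10063 genes with any promoter peak in either list, 76.1% had 1. The lists of general cell functions had higher shares of all their genes, with intervals above 36.0% in each. All 20 aminoacyl-tRNA synthetases, the enzymes that charge tRNAs, had a member, as did 19 of 20 chaperonin and heat shock genes, 66 of 70 genes of the respiratory chain and ATP synthase, 29 of 31 proteasome genes, 30 of 34 DNA replication genes and 57 of 65 genes of RNA polymerase II, its general factors and Mediator. The counts were 32 of 38 for the spliceosome, 29 of 38 for translation initiation factors, 24 of 33 for SWI/SNF and other chromatin regulators and 11 of 18 for glycolysis. Among genes with any promoter peak, the shares were 100% for the synthetases, 95% for the chaperonins, 94.3% for the respiratory chain, 93.5% for the proteasome, 90.9% for replication, 87.7% for the polymerase genes and 84.2% for the spliceosome. Beside the background of 76.1% for such genes, chromatin regulators (80%) and translation initiation (76.3%) lay close to it and glycolysis (64.7%) below it. Promoters are shared by neighbouring genes on opposite strands, so these genes are not independent. The B cell and myeloid markers, listed to check the sort, had 0 of 13 and 0 of 14. Of these, 12 and 11 had no promoter peak, and Pou2af1 (114 fragments), Cebpb (25), Itgam (36) and Fcgr3 (40) had one in WT only. The paper reports Pou2af1 as a gene that Tcf1 and Lef1 activate in CD8+ T cells, with a less accessible promoter in dKO. Its peak is therefore no check of the sort.

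**Figure D5:**
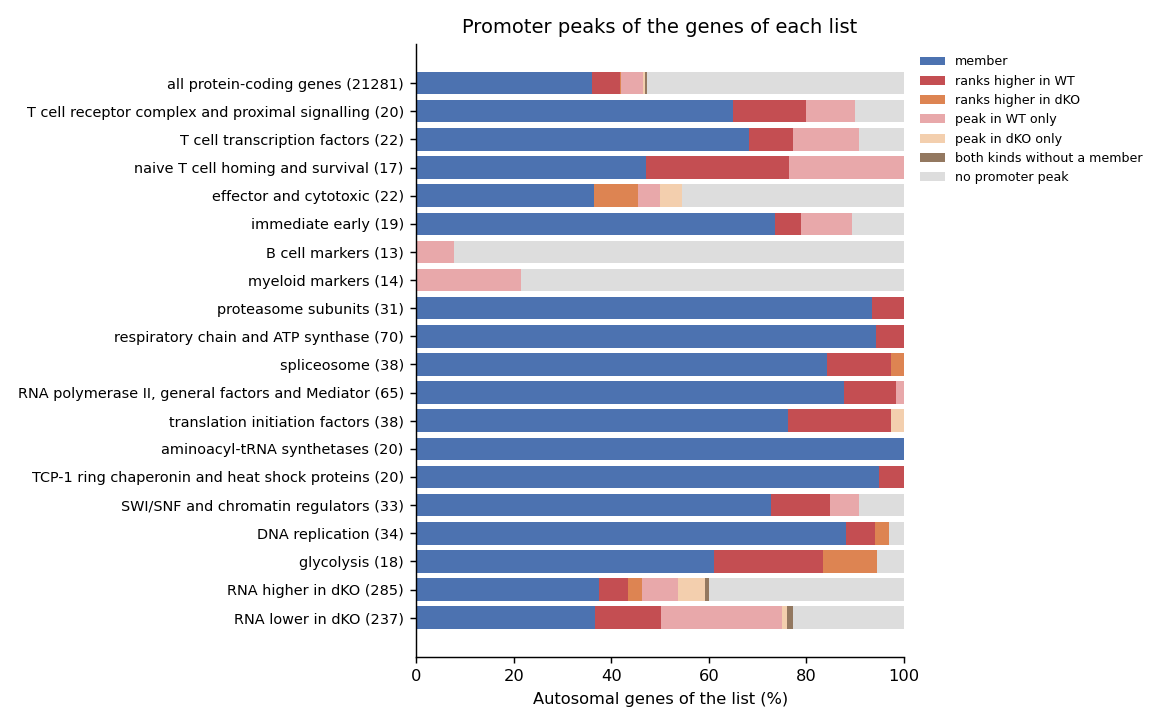
Autosomal genes of each list (y axis, number in brackets) by the state of their promoter peaks (x axis, % of genes). Blue bars, genes with a member, span all 20 aminoacyl-tRNA synthetases and 36.0% of all protein-coding genes, and no B cell or myeloid marker has one.

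Here and below, each gene of a list counts once, at its member with the highest WT percentile. The medians and the highest and lowest genes of a list follow from that. Median WT percentiles in these 10 lists ran from 65.5 for glycolysis to 94.7 for the chaperonins, and median dKO percentiles from 61.8 to 91.1. The medians over all members, 79.5 and 74.0, count every member and are not a like comparison. For the respiratory chain, the median WT percentile was 90.2 and the median dKO percentile 85.3, from Ndufa3 (219 fragments in WT and 166 in dKO, percentiles 99.6 and 99.3) down to Uqcrb, a subunit of complex III (21 and 23, percentiles 3 and 13). The Uqcrb member lay 440 bp past a start, and the peak at the start itself was no member (84 and 43 fragments, percentiles 75.3 and 51.7). The proteasome members ran from Psma2 (300 and 185, percentiles 99.8 and 99.4), whose site lies between Psma2 and the mitochondrial ribosomal gene Mrpl32 on the other strand, to Psmc1 (39 and 28, percentiles 30 and 23.4). The 2 proteasome genes without a member, Psmb5 and Psmd2, ranked higher in WT.

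The synthetases ran from Tars (206 and 145 fragments, percentiles 99.4 and 99) to Vars (29 and 27, percentiles 14.4 and 21.3), whose member lies 209 bp before its start and nearer to that of D17H6S56E-5. The chaperonins had the highest medians of the lists, 94.7 in WT and 91.1 in dKO, led by Cct5 (215 and 153, percentiles 99.5 and 99.1), a subunit of the TCP-1 ring. A further WT peak at Cct5 (46 fragments) overlapped the same wide dKO peak and therefore counted as higher in dKO. In the spliceosome, Snrnp70 was highest (193 and 115, percentiles 99.2 and 97.1) and Srsf2, a serine and arginine rich splicing factor, lowest (59 and 37, percentiles 55.4 and 41.6). Among the polymerase genes, Ercc2, a helicase of TFIIH, was highest (217 and 156) and Taf11, a subunit of TFIID, lowest (37 and 31).

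For the remaining lists, Eif4e, the cap-binding factor, led translation initiation (210 and 143 fragments, at a site 985 bp past its start and nearer to another) and Eif3b was lowest (45 and 40). Mbd3 led the chromatin regulators (225 and 144) and Arid1b, a subunit of SWI/SNF, was lowest (32 and 19). Rpa3, of the single-strand binding complex, led replication (182 and 138) and Rfc5, of the clamp loader, was lowest (65 and 52). Pgam1 led glycolysis (138 and 72) and Hk2 was lowest (33 and 22). With each gene counted once, the median difference was below 0 in each of these 10 lists. It lay between -8.49 points for the chromatin regulators and -2.65 points for the polymerase genes. Over all members, with every member counted, it was -4.16 points.

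Of 20 genes of the T cell receptor complex and its proximal signalling, 13 had a member, 65% beside the background of 36.0%. Among the 18 with any promoter peak the share was 72.2%, close to the background of 76.1% for such genes. The promoters of the 13 genes with a member were mostly CpG-poor, 10 of 13, unlike those of the general lists. The highest was Cd28 (157 fragments in WT and 100 in dKO, percentiles 97.0 and 94.6), with its summit 1 bp before the start. The lowest was Lcp2, an adaptor of the signalling complex (35 and 28, percentiles 23.9 and 23.4). The ζ chain gene Cd247 (84 and 81, percentiles 75.3 and 87.8) had the widest shift of the 13, toward dKO. It also had a peak in dKO only at another annotated start (245 fragments, percentile 99.6).

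The coreceptor gene Cd8a was a member (41 and 31 fragments, percentiles 32.9 and 29.6), as was Cd3e (44 and 30, percentiles 37.1 and 27.5), whereas Cd8b1, the other chain of the coreceptor, was not (88 and 39, percentiles 77.5 and 45.1). Lck, the kinase that starts receptor signalling, has several annotated starts. Its site at chr4:129250817-129251007 was a member (69 and 53, percentiles 64.7 and 65.6), and another at chr4:129235616-129236117 ranked higher in WT (76 and 41, percentiles 69.9 and 48.4). Cd5 and Cd6 ranked higher in WT, Cd3d and Ptprc had a promoter peak in WT only, and Vav1 and Prkcq had none.

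Of 22 T cell transcription factor genes, 15 had a member (68.2%, and 75% of those with any promoter peak). They were led by Cbfb (204 and 113 fragments, percentiles 99.4 and 96.9), Runx3 (164 and 104, percentiles 97.7 and 95.6) and Gabpa, the DNA-binding chain of GABP (162 and 152, percentiles 97.5 and 99.1). The lowest was Tcf12, an E protein (30 and 21, percentiles 15.9 and 9.11). Runx1 had its member at the CpG-poor start (83 and 79, percentiles 74.7 and 86.7), a second member at another start (43 and 45, percentiles 35.8 and 54.9), and a weak site that ranked higher in dKO (18 and 28). Foxo1 and Klf2, which drive homing genes of naïve T cells, ranked higher in WT, and Gata3, Foxp1 and Ikzf3 had a peak in WT only.

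Of the deleted genes, Lef1 had a member 376 bp past an annotated start, at chr3:130816061-130816164 (54 fragments in WT and 37 in dKO, percentiles 50.2 and 41.6), and another promoter site 415 bp before a start that ranked higher in WT (60 and 33, percentiles 56.4 and 33.7). Tcf7 had no promoter peak in either list. The lists give no check of the deletion.

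The genes of naïve T cell homing and survival had 8 of 17 with a member (47.1%, interval 26.2% to 69.0%), an interval that holds the background of 36.0% and lies below that of 76.1%. Ccr7 was a member with percentiles of 88.6 in WT and 72.1 in dKO (115 and 59 fragments), and Stat5a, a signal transducer of cytokine receptors, was near the limit at 77.5 and 57.8 (88 and 47). Il7r was closer (60 and 39, percentiles 56.4 and 45.1), and the survival gene Bcl2l1 was higher in rank in dKO (122 and 92, percentiles 90.7 and 92.4). S1pr1, the receptor for egress from lymph nodes (87 and 45, percentiles 77.0 and 54.9), lay just beyond the limit and was not a member. Il4ra, Stat5b and Itgal ranked higher in WT too, and Bcl2, Il6ra, Il6st and Dgka had a peak in WT only.

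Of 22 effector and cytotoxic genes, 8 had a member (36.4%, and 66.7% of those with any promoter peak), and 10 had no promoter peak, among them Tbx21 and Eomes. The members were the promoters of Il2rb (107 and 74 fragments, percentiles 86.1 and 83.9), a receptor chain for interleukins 2 and 15, Prf1, Fasl, Ctla4, Prdm1, Nkg7, Il2ra and Ifng (23 and 23, percentiles 5.41 and 13). Fasl stood at 77.5 in WT and 88.3 in dKO (88 and 82). The Nkg7 member was a site 614 bp before the start (44 and 39, percentiles 37.1 and 45.1), and the peak at the start ranked higher in dKO (67 and 79, percentiles 63 and 86.7). The granzyme gene Gzmb (25 and 52, percentiles 8.10 and 64.4) and the chemokine gene Ccl4 (39 and 58, percentiles 30 and 71.1) were beyond the limit toward dKO, and Gzma had a peak in dKO only. Of 19 immediate early genes, 14 had a member (73.7%, and 82.4% of those with any promoter peak). These were led by Egr2 (164 and 112, percentiles 97.7 and 96.8) and Jun (161 and 146, percentiles 97.4 and 99), with Nr4a1 near the limit (65 and 37, percentiles 61.2 and 41.6).

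Genes that the study called differentially expressed from RNA of these genotypes had the following shares. Of the 285 autosomal genes with higher RNA in dKO cells, 107 had a member (37.5%, interval 32.1% to 43.3%), and of the 237 with lower RNA, 87 had 1 (36.7%, interval 30.8% to 43.0%), beside 36.0% of all protein-coding genes. Among genes with any promoter peak the shares were 62.6% and 47.5%, beside 76.1%. At shared promoter peaks of the genes with higher RNA in dKO, 120 of 153 (78.4%) were stable, beside 82.4% of all shared promoters. The median difference of these 120 was -0.574 points, beside -4.16 points over all members. Of the 153, 22 ranked higher in WT and 11 in dKO, beside 1580 (16.0%) and 163 (1.65%) of all 9884 shared promoters. At shared promoter peaks of the genes with lower RNA, 99 of 138 (71.7%) were stable, and the median difference of these 99 was -5.42 points. Of the 138, 38 ranked higher in WT and 1 in dKO. Only 2 members, at Serpinb6b (28 and 32 fragments, percentiles 12.8 and 31.7) and Csf1 (17 and 26, percentiles 0.167 and 19.2), overlapped any of the 321 differentially accessible sites in the study's list as used here. The list holds only sites that the study linked to genes it took as changed in expression, a part of all its differentially accessible sites. That list was chosen on these samples and holds sites that changed, so the low count is no independent evidence.

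The member with the highest depth-scaled ratio of dKO to WT was the site at the start of H2-K1, a gene of class I major histocompatibility molecules, at chr17:34137173-34137623, with 130 fragments in WT and 953 in dKO. Its percentile was 92.7 in WT and 99.9 in dKO, and its depth-scaled log2 ratio was 3.31, whereas the next highest among members was 1.04, at Csf1, and the lowest was -0.92, at Usp5, which encodes a deubiquitinase. The dKO peak was 840 bp wide against 451 bp in WT, and fold enrichment was 21.3 against 13.8. A second dKO peak of 202 fragments followed at chr17:34138183-34139204, where the WT list has none. Whether the extra fragments come from the gene in its place in the genome or from another copy of its sequence in the dKO cells cannot be read from the lists, and the values are fragments mapped there.

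The highest pileups belonged to repeats. The 10 members with the highest WT pileup lie at predicted genes on chromosome 2 near 98.5 Mb (Gm10800 with 11513 fragments in WT and 9035 in dKO, and Gm10801 with 6705 and 5270) and at the start of chromosome 9 (Gm10718, Gm10717, Gm10722 and Gm10106, 678 to 3963 fragments in WT). The sequence within 100 bp of each of their summits has near-identical copies elsewhere in mm9, as has that of all 9 members above percentile 99.9. In all, 164 members (2.01%) had at least 1 copy, against 190 (1.92%) of all shared promoters. The highest without a copy were Hjurp, a centromere chaperone gene (454 and 275), and the Psma2 and Mrpl32 site.

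By chromosome, the share of shared promoters that were members ran from 73.8% on chromosome 11 (658 of 891) to 87.9% on chromosome 1 (509 of 579). The shares on chromosomes 19 (76.5%) and 15 (77.5%) were low too. These values describe the pools, and the parts of gene content and base composition in them were not tested.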

How the data were processed

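DNase-seq was measured in 3 WT and 2 dKO samples of sorted naïve CD8+ T cells, grouped by the genotype in the labels. The authors aligned paired 150 nt reads to mm9 with Bowtie2 2.2.5, kept uniquely mapped reads, pooled the samples of a genotype and called peaks on each pool with MACS2 2.1.1.20160309, using read pairs, no control library and a p-value limit of 1e-05. The authors' pileup is the signal at the summit, in fragments and unscaled. Fold enrichment, as deposited, is a ratio of pileup to estimated background, and the deposited -log10 p and -log10 q are MACS2's tests against it. Per the file headers, 167847468 fragments were read for WT and 124485926 for dKO, of which exactly 50% were kept. Each header names 2 alignment files, 1 with duplicates removed and a sorted copy of it, and allows 1 fragment per position, so the kept number stands for 1 copy.

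Peaks were paired, ranked and classed with Python 3.11.15, numpy 2.4.6, pandas 2.3.3 and scipy 1.17.1. Ties in pileup took their mean rank. Transcript starts and exons came from the gencode vM1 annotation of mm9. Sequences were read from mm9 with pysam 0.24.0 and samtools 1.23.1, and copies were counted with blastn 2.17.0 (90% identity or more across 80% or more of the bases within 100 bp of the summit, word size 40, low-complexity sequence masked, so counts are lower bounds). Plots used matplotlib 3.10.9. Overlap, percentile, interval and motif code was tested on simulated data. Differentially expressed genes and differentially accessible sites were taken as lists of names and positions from the study's supplementary data, in copies that may hold fewer entries. The listed sites are those the study linked to genes it took as changed in expression, not all its differentially accessible sites.

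The members and the gene lists were chosen with earlier results of these data known. Named genes are Tcf7 and Lef1, the 10 members with the highest WT pileup, the 3 nearest inside and outside the limit, and genes of the T cell lists as their counts need. The highest and lowest gene of each other list are named too, each gene taken at its member with the highest WT percentile. H2-K1, Usp5, Hjurp, Psmb5 and the members at study sites were named after their values were seen, and the CpG classes, GC bins and the range of WT percentiles 30 to 70 were also chosen then. Some genes of the lists are counted but not reported here by name. Alternatives were another limit, rank measure, peak filter, overlap, pairing, annotation, distance, anchor list and window.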

Additional observations from a re-analysis of the deposited data

How the results depend on the processing

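The share of shared promoters that were stable, 82.4%, was 57.4% with a limit of 10 points and 93.7% with a limit of 30 points. It was 84.2% with peaks ranked by fold enrichment, 83.2% under the study's peak criteria, 79.0% with a fold enrichment of at least 8 and 81.1% with dKO peaks as anchors. With differences centred on the median of all shared autosomal peaks, an alternative chosen after seeing the data, it was 87.1%, and centred within GC bins, also chosen afterwards, 89.3%. Under the other 7 alternatives, the removal of near-identical copies among them, it stayed within the interval of 81.6% to 83.1%. The number of members fell to 4872 with a fold enrichment of at least 8, where fewer peaks were ranked, and stayed within 1.5 times of 8141 under the other 13 alternatives. The median observed over expected CpG of members was 0.807, 0.835 in windows of 50 bp on either side of the summit and 0.821 with protein-coding starts only. The share with an ETS motif was 18.1% and, in those shorter windows, 12.2%. Divergent starts were annotated for 19.5% of members, 20.5% with a limit of 10 points and 13.3% with protein-coding starts only, where fewer starts are counted. The summit was upstream in 74.2%, and in 76.1% with a limit of 10 points. The cause of the other shifts was not tested. Each list is 1 pool, so leaving out a replicate could not be done. No paired analysis was possible because the deposited lists hold no value per replicate.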

Other observations

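The antigen receptor loci held 35 autosomal WT promoter peaks whose nearest start was annotated as a variable gene segment, and 17 of them were members, beside 65.9% of all autosomal WT promoter peaks. Another 12 were found in WT only. On chromosome 14, 3 of 9 were members, 5 were found in WT only and 1, at Gm5770, ranked higher in dKO (34 and 141 fragments, log2 ratio 2.48). On chromosome 6, which holds the T cell receptor beta locus, 5 of 8 were members, with summits at or before the start (-512 to -4 bp) and WT percentiles of 44.0 to 89.8, and all 5 had a higher percentile in dKO, whereas 73.5% of all members had a lower one. Examples were Trbv1 (68 fragments in WT and 70 in dKO, percentiles 63.9 and 81.3), Trbv12-2 (119 and 90, percentiles 89.8 and 91.8) and Trbv31 (49 and 46, percentiles 44.0 and 56.4). On chromosome 12, which holds the immunoglobulin heavy chain locus, 8 of 17 were members, with summits 294 to 455 bp past the start and WT percentiles of 12.8 to 57.4. For example, Ighv1-12 had 47 and 46 fragments (percentiles 41.2 and 56.4). Of the 8, 6 had a higher percentile in dKO, and 7 had near-identical copies elsewhere in mm9. All 17 members at variable segments were CpG-poor. CpG-poor members as a class had a median difference of -0.882 points, beside -4.16 points over all members, so the share over all members is not a like comparison.

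Outside the members, several sites had high depth-scaled ratios of dKO to WT, as H2-K1 had, and they were named after their values were seen. At Gm16734 on chromosome 12, 77 fragments in WT stood against 816 in dKO (log2 ratio 3.84), with a dKO peak of 1496 bp. At Aldoa, a glycolytic enzyme, 3 promoter sites had log2 ratios of 2.61 to 3.01, and the dKO peaks of 2 of them, 136 and 120 bp wide, lay wholly within annotated exons, while the peak 32 bp before a start (116 fragments in WT) had no overlapping dKO peak. A distal site on chromosome 7 (115 and 576 fragments, log2 ratio 2.76) also had its dKO peak of 174 bp wholly in exons, and a distal site on chromosome 18 (49 and 236 fragments, log2 ratio 2.70) had none of its dKO peak in exons. Whether these fragments come from the sites in their place in the genome cannot be read from the lists.

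On the X chromosome, left out because the members are autosomal, 210 of 270 shared promoters (77.8%, interval 72.4% to 82.3%) would have met the limit, 58 ranked higher in WT and 2 in dKO.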
